A study of Mus musculus with 10 samples.

Results

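Integrins are receptors that join a cell to its extracellular matrix, each built of 1 alpha and 1 beta subunit that pair before they reach the cell surface. The alpha subunit largely sets which ligand is bound, and the beta subunit carries the tail through which adaptor proteins such as talin and kindlin link the receptor to actin. The 10 subunit genes described here were taken by name from the mouse genes of the deposited count files, by matching Ensembl identifiers to GENCODE symbols, and all 10 were found among 41091 identifiers. They are Itga1, Itga2 and Itga11, whose products pair with the beta 1 subunit and bind collagen, Itga5, Itga8 and Itgav, whose products bind the Arg-Gly-Asp (RGD) motif of ligands such as fibronectin, the common partner Itgb1, and Itgb3, Itgb5 and Itgb6, partners of alpha v. All 10 passed the filter on low counts, together with 16669 genes in all. Another 16 integrin subunit genes served as comparison.

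The measurements were RNA counts from adherent cultures of adult C57BL6 mouse olfactory epithelium, the sensory lining of the nose. The tissue had been collected 9 days after a lesion with methimazole, a drug that strips the epithelium and starts its regrowth, and the dissociated cells were kept on gelatin with EGF, FGF2 and heparin. Every group received a lentivirus, which carried a short hairpin RNA against Cbx8 (shCBX8 replicates 1, 2 and 6), a hairpin against Cbx7 (shCBX7 replicates 1, 2 and 5) or a non-targeting scrambled hairpin (shCTR replicates 1, 2, 5 and 6). CBX7 and CBX8 are chromodomain proteins of Polycomb repressive complex 1. The labels call them biologic replicates and name neither animal nor culture, so the spread on which the p-values rest may be a technical one.

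Each library held 22763014 to 50463172 counts in genes, and levels are given in CPM, a gene's share of the counts of a library after TMM scaling. Cbx8 averaged 4.95 ± 0.219 CPM in shCBX8 (SD, n = 3) and 12.3 ± 2.55 CPM in shCTR (n = 4), or -1.31 on the log2 scale (SE 0.22, edgeR adjusted p = 0.00416), and -0.95 with background as a term in the fit (adjusted p = 0.121), which did not pass. Cbx7 averaged 8.27 ± 4.76 CPM in shCBX7 and 13.2 ± 5.55 CPM in shCTR and did not pass (-0.67, adjusted p = 0.929), so its level does not check the shCBX7 label. Omp, of mature olfactory neurons, and Neurog1, of their precursors, reached at most 0.605 CPM in a library, and the mature sustentacular gene Cyp2g1 at most 1.94 CPM. Not every marker of neurons or their precursors was this low. The sum of 8 olfactory neuron markers was 25.5 to 90.7 CPM in shCBX8, 66.1 to 159 CPM in shCBX7 and 62.3 to 124 CPM in shCTR. In each library 4 or 5 of these 8 were at 1 CPM or more. Other marker sums differed between shCBX8 and the other groups. Summed over 12 fibroblast markers, the level was 185 to 3260 CPM in shCBX8, 5517 to 18345 CPM in shCBX7 and 5782 to 29271 CPM in shCTR. All 12 had a log2 fold change below 0 in shCBX8 against shCTR, but 1 was called lower, where 15.9% of all genes were. Summed over 8 sustentacular and gland markers it was 3595 to 10228 CPM in shCBX8, 95.6 to 1731 CPM in shCBX7 and 125 to 1581 CPM in shCTR, most of it Krt8 and Krt18, keratins of many simple epithelia, with 3 to 6 of the 8 at 1 CPM or more. The sum of 7 horizontal basal cell markers was 1015 to 1207 CPM in shCBX8, 258 to 740 CPM in shCBX7 and 304 to 1006 CPM in shCTR. Against shCTR 2 of these 7 were called higher in shCBX8, where 17.0% of all genes were, and 1 had a log2 fold change below 0. Summed over 9 smooth muscle and pericyte markers it was 2152 to 6151 CPM in shCBX8, 862 to 1431 CPM in shCBX7 and 810.2 to 2004 CPM in shCTR. Rgs5 was the highest of them in shCBX8, and 3 of the 9 had a log2 fold change below 0 against shCTR. The sum of 7 skeletal muscle markers was 20.4 to 65.2 CPM in shCBX8, 2.11 to 4.83 CPM in shCBX7 and 4.26 to 9.54 CPM in shCTR, in shCBX8 mostly Acta1, with Myod1 at no more than 0.0301 CPM there. Counts on the strand opposite to 1455 olfactory and vomeronasal receptor genes, used as a measure of background, were 12.6 to 23.2 CPM in shCBX8, 11.2 to 15.5 CPM in shCBX7 and 31.3 to 108 CPM in shCTR. The part of these measures in the integrin differences was not tested. Fits with background as a term are given below, but every shCTR library had more background than every shCBX8 or shCBX7 library. Against shCTR such a fit cannot separate background from hairpin, whether a call ended or held with the term. In bulk RNA, fewer cells of a type and less RNA per cell cannot be told apart.

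Set side by side per length of the gene's exons, as that is, CPM per kilobase (RPKM), the members spanned a wide range. In shCTR Itgb1 led at 323 ± 20.0 RPKM (SD, n = 4), followed by Itgb5 at 50.3 ± 20.8 and Itgav at 41.2 ± 5.13, which overlapped between libraries, and by Itga8 at 23.2 ± 1.05, which overlapped neither neighbour. Then came Itga5 at 9.86 ± 3.08, Itgb3 at 5.74 ± 4.03, Itga1 at 4.14 ± 2.69 and Itga2 at 3.33 ± 1.46 RPKM, each overlapping the next. Itgb6 at 0.551 ± 0.392 and Itga11 at 0.465 ± 0.805 RPKM stood last and overlapped. In shCBX8 Itgb1 again led, at 197 ± 23.8 RPKM (n = 3), and Itga8 stood 8th at 3.14 ± 2.82 RPKM, next to Itgb6 at 3.56 ± 1.48 RPKM, which it overlapped. In shCBX7 Itgb1 stood at 372 ± 50.6 RPKM and Itga8 again 4th at 24.4 ± 4.02 RPKM (n = 3). The length used was that of all annotated exons. For Itga1 this is 18599 bases, against 10967 in its longest coding transcript, for Itgav 10744 against 7054 and for Itgb6 7111 against 4806. Places in the order, and the shares of summed RPKM given below, depend on this choice, which was looked at after the values were seen.

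**Figure D1:**
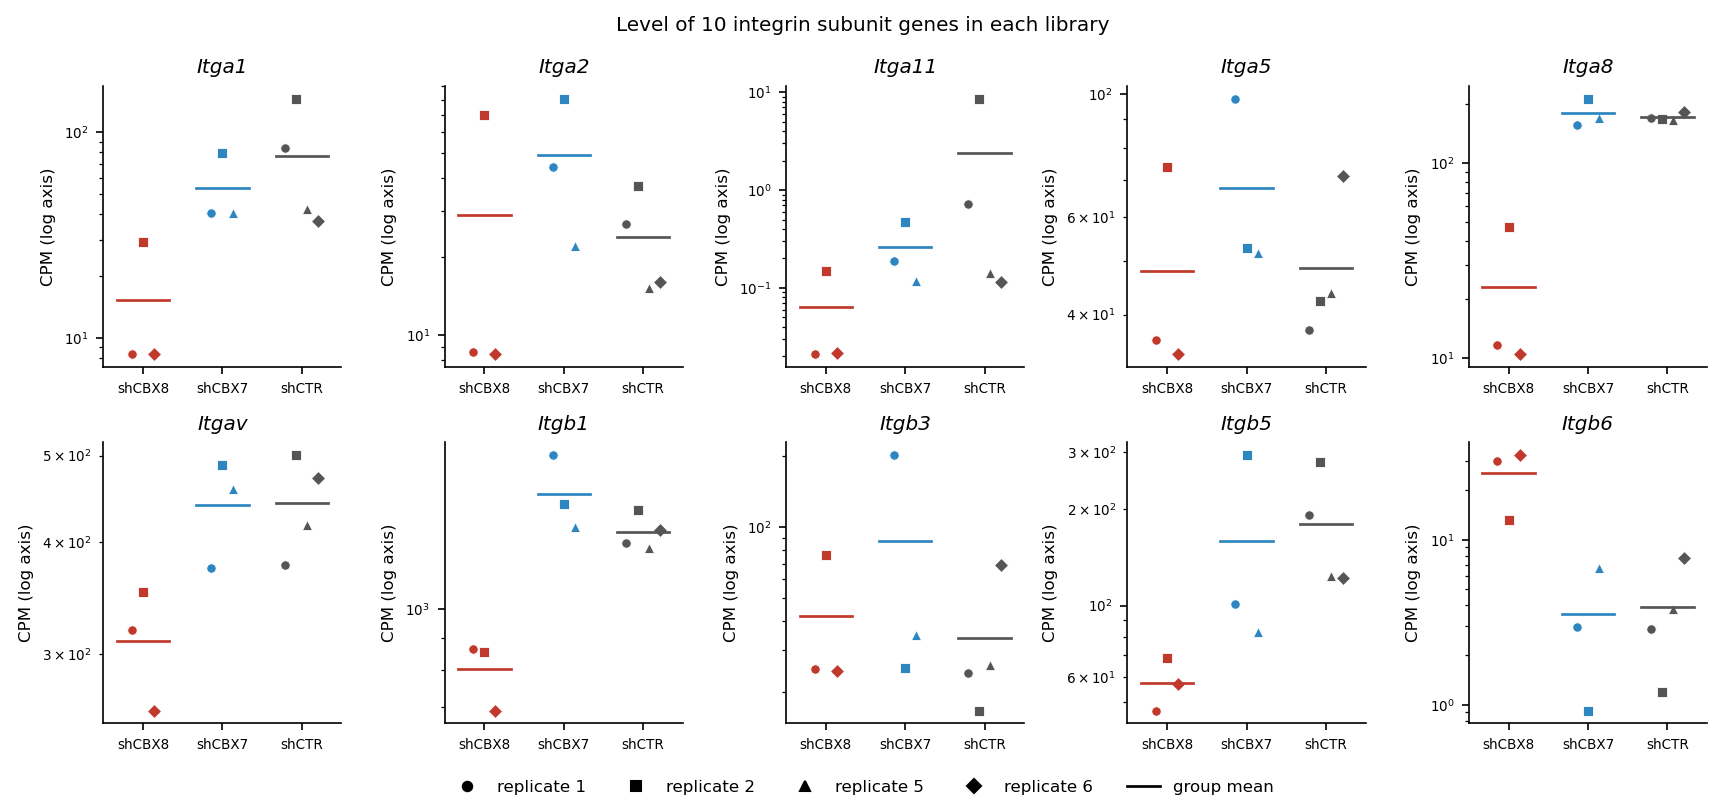
Level of each of the 10 subunit genes in each library, in CPM on a log axis, with the libraries of shCBX8 (red), shCBX7 (blue) and shCTR (grey) as points, their replicate numbers as symbols and the group mean as a line. Itga8 lies at 10.5 to 47.1 CPM in shCBX8, against 165 to 182 CPM in shCTR, and Itgb6 at 13.2 to 32.7 CPM in shCBX8, against 1.20 to 7.77 CPM in shCTR.

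In cultures with the Cbx8 hairpin, 6 of the 10 subunits fell and 1 rose against the control hairpin. The falls reached from Itgav, at a log2 fold change of -0.51, to Itga11, at -5.25, and the rise was that of Itgb6, at 2.68. In the edgeR quasi-likelihood test 32.9% of all genes passed in this comparison, 17.0% higher and 15.9% lower, with an adjusted p under 0.05. The libraries of both groups did not overlap for 6 of the 10 members, against 42.4% of all genes. The median log2 fold change was -0.61 over the 10 members and -0.01 over all genes tested. The members, and the gene lists described below, were chosen with earlier results of these data known. Their shares and medians beside those of all genes are therefore descriptions and no independent support. The call of Itga8 alone held in each of the 20 other settings tried. It was also the only member still called with a background term in the fit and without shCTR 1 and 2, which had the highest background, and of the 7 calls it was again alone without shCBX8 6, while Itga8 and Itgb1 were left without shCBX8 1, and 4 calls each without shCTR 1 or without shCTR 2.

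Itga8, the alpha 8 subunit that pairs with beta 1 and binds nephronectin and other RGD ligands (ENSMUSG00000026768, chromosome 2, 12106632 to 12301922, minus strand, GRCm38), changed with the smallest p among the members. It measured 11.8, 47.1 and 10.5 CPM in shCBX8 1, 2 and 6, against 169.9, 168, 165 and 182 CPM in shCTR 1, 2, 5 and 6. The control libraries lay close together, and shCBX8 2 was the highest of the shCBX8 libraries without reaching them. The log2 fold change was -2.89 (SE 0.51, edgeR adjusted p = 0.00476), with a range of -3.99 to -2.53 over the other settings. Its level in shCBX7 1, 2 and 5, at 156, 213 and 170.2 CPM, overlapped that of shCTR. E030013I19Rik, an antisense gene that overlaps Itga8, measured 0.108 to 0.210 CPM in shCBX8 and 2.56 to 3.56 CPM in shCTR. Stranded counting keeps most reads of the 2 genes apart, but not all, as forward-strand counts were 3.42 to 10.4% of the stranded counts of a library. How many counts of E030013I19Rik came from Itga8 was not tested.

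Itgav, the alpha v subunit (ENSMUSG00000027087, chromosome 2, 83724397 to 83806916, plus strand), fell by less. It measured 319, 352 and 259 CPM in shCBX8 1, 2 and 6, against 377, 501, 418 and 472 CPM in shCTR 1, 2, 5 and 6, and the groups did not overlap. On the log2 scale this was -0.51 (SE 0.16, adjusted p = 0.0391), but the call ended in 11 of the 20 other settings, with values of -0.66 to -0.33. Among these were scaling by library size alone (-0.33, adjusted p = 0.141), no filter on low counts (-0.48, adjusted p = 0.0961), unstranded counts (-0.46, adjusted p = 0.0653) and the fit without shCBX8 1 or 6, shCBX7 5, or shCTR 2, 5 or 6 (adjusted p = 0.0540 to 0.160). Itga5, the alpha 5 subunit of the main fibronectin receptor (ENSMUSG00000000555, chromosome 15, 103344286 to 103366763, minus strand), overlapped, at 36.0, 73.9 and 33.9 CPM in shCBX8 1, 2 and 6 and 37.5, 42.3, 43.7 and 71.0 CPM in shCTR 1, 2, 5 and 6. Its log2 fold change was -0.02, with a 95% interval of -0.82 to 0.77 (adjusted p = 0.969).

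Among RGD-binding alpha subunits, Itga8 made up a smaller share in shCBX8. Of the summed RPKM of Itga5, Itga8 and Itgav it held 6.78 ± 4.37% in shCBX8 (SD, n = 3), 30.7 ± 3.07% in shCBX7 and 31.5 ± 2.64% in shCTR (n = 4). These shares, and the other shares that follow, were added after values had been seen and have no test of their own. The log2 ratio of Itga8 to Itgav averaged -3.55 in shCBX8 and -0.82 in shCTR, a difference of -2.74. An exact two-sided permutation test gave p = 0.0286, the smallest that 3 against 4 libraries allow, and 0.0571 after adjustment over 8 ratios, which did not pass. A ratio at this smallest p can pass the adjustment only together with several others. Its failure to pass is therefore no sign that the groups are alike.

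Itgb1, the beta 1 subunit shared by the collagen-binding, alpha 5 and alpha 8 receptors (ENSMUSG00000025809, chromosome 8, 128685654 to 128733200, plus strand), was the most abundant member and fell. It measured 863, 857 and 692 CPM in shCBX8 1, 2 and 6, against 1270.5, 1429.7, 1246 and 1328 CPM in shCTR 1, 2, 5 and 6. Every shCBX8 library lay below every shCTR library. On the log2 scale it changed by -0.71 (SE 0.16, adjusted p = 0.0113), a fold of 1.64. The call ended with the background term (-0.80, adjusted p = 0.0957), without shCTR 1 and 2 (-0.70, adjusted p = 0.0540) and without shCBX8 6 (-0.61, adjusted p = 0.0606), at nearly the same size.

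Of the collagen-binding alpha subunits, Itga1 fell, Itga2 did not pass and Itga11 was called on thin counts. Itga1, the alpha 1 subunit, a receptor with a preference for basement membrane collagen IV (ENSMUSG00000042284, chromosome 13, 114953096 to 115101964, minus strand), measured 8.34, 29.1 and 8.30 CPM in shCBX8 1, 2 and 6, against 83.5, 145, 42.1 and 37.0 CPM in shCTR 1, 2, 5 and 6. The groups did not overlap, and shCBX8 2 came nearest to the controls. The log2 fold change was -2.34 (SE 0.64, adjusted p = 0.0235), and the call ended with the background term (-1.42, adjusted p = 0.512), without shCTR 1 and 2 (-1.40, adjusted p = 0.129) and without shCBX8 1 or 6 (adjusted p = 0.0906 to 0.0919). Pelo, which lies inside Itga1 on the same strand, measured 17.0 to 18.6 CPM in shCBX8 and 13.7 to 15.2 CPM in shCTR, and how reads over both genes were divided was not tested.

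Itga2, the alpha 2 subunit, which prefers fibrillar collagen (ENSMUSG00000015533, chromosome 13, 114833081 to 114932100, minus strand), measured 8.57, 69.7 and 8.43 CPM in shCBX8 1, 2 and 6 and 26.7, 37.2, 15.2 and 15.9 CPM in shCTR 1, 2, 5 and 6. The shCBX8 libraries were split, with 2 below and 1 above every control library. The log2 fold change was 0.28 (95% interval -1.43 to 1.997, adjusted p = 0.796), and it was -1.48 without shCBX8 2. Of the summed RPKM of Itga1, Itga2 and Itga11, Itga2 held 77.0 ± 7.77% in shCBX8, 68.2 ± 8.41% in shCBX7 and 45.2 ± 7.26% in shCTR. The log2 ratio of Itga2 to Itga1 was higher than in shCTR by 2.01 in shCBX8 (exact permutation p = 0.0286, adjusted p = 0.0571) and by 1.34 in shCBX7 (exact permutation p = 0.0286, adjusted p = 0.229), and neither passed. Both comparisons use the same control libraries.

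Itga11, the alpha 11 subunit of fibroblasts (ENSMUSG00000032243, chromosome 9, 62677826 to 62783982, plus strand), measured 0.0210, 0.150 and 0.0215 CPM in shCBX8 1, 2 and 6, against 0.713, 8.57, 0.142 and 0.115 CPM in shCTR 1, 2, 5 and 6. These came from 7 counts over the shCBX8 libraries and 197 over the shCTR libraries, of which 171 were in shCTR 2. The groups overlapped. The value of -5.25 on the log2 scale (SE 1.76, adjusted p = 0.0459) rested on shCTR 2. Without shCTR 1, without shCTR 2 or without both the gene did not pass the filter on low counts and was not tested. The same held with the filter at a mean of 1 CPM and with only the 2 groups compared, that is, without the shCBX7 libraries. Its call ended with unstranded counts (-3.65, adjusted p = 0.0568) and without any 1 of the shCBX8 or shCBX7 libraries, with adjusted p between 0.0520 and 0.148. With the background term the value turned to 0.33.

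Among the partners of alpha v, Itgb5 fell, Itgb6 rose and Itgb3 did not pass. Itgb6, the beta 6 subunit, which is restricted to epithelia and, with alpha v, activates latent TGF-beta (ENSMUSG00000026971, chromosome 2, 60598292 to 60722643, minus strand), measured 30.0, 13.2 and 32.7 CPM in shCBX8 1, 2 and 6, against 2.89, 1.20, 3.81 and 7.77 CPM in shCTR 1, 2, 5 and 6. All shCBX8 libraries lay above all shCTR libraries, with shCBX8 2 the nearest. On the log2 scale it changed by 2.68 (SE 0.72, adjusted p = 0.0211), a fold of 6.41. The call ended with the background term (1.68, adjusted p = 0.376), without shCTR 1 and 2 (2.11, adjusted p = 0.110) and without any 1 of shCBX8 1 or 6 or shCTR 1 or 5 (adjusted p = 0.0507 to 0.0724).

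Itgb5, the beta 5 subunit, a vitronectin receptor with alpha v (ENSMUSG00000022817, chromosome 16, 33829665 to 33949338, plus strand), measured 47.1, 68.5 and 57.2 CPM in shCBX8 1, 2 and 6, against 191, 279, 124 and 122 CPM in shCTR 1, 2, 5 and 6. The groups did not overlap. The log2 fold change was -1.63 (SE 0.48, adjusted p = 0.0288), and -0.67 with the background term (adjusted p = 0.616) and -1.11 without shCTR 1 and 2 (adjusted p = 0.155). Its call also ended without any 1 of shCBX8 1 or 6 or shCTR 1 or 2 (adjusted p = 0.0538 to 0.107). Itgb3, the beta 3 subunit known from platelets and osteoclasts (ENSMUSG00000020689, chromosome 11, 104608000 to 104670476, plus strand), measured 25.1, 76.4 and 24.4 CPM in shCBX8 1, 2 and 6 and 23.9, 16.6, 25.9 and 69.1 CPM in shCTR 1, 2, 5 and 6. Here 1 library of each group stood above the others, and the log2 fold change was 0.31 (95% interval -1.46 to 2.07, adjusted p = 0.787).

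Of the summed RPKM of Itgb3, Itgb5 and Itgb6, Itgb6 held 19.4, 5.44 and 18.5% in shCBX8 1, 2 and 6, against 0.699, 0.208, 1.35 and 2.32% in shCTR 1, 2, 5 and 6. The groups did not overlap, and shCBX8 2 again lay nearest to the controls. The log2 ratio of Itgb6 to Itgb5 differed by 4.43 and that of Itgb6 to Itgb3 by 2.56 between shCBX8 and shCTR, each with an exact permutation p = 0.0286 and an adjusted p = 0.0571. In this comparison 4 of the 8 ratios were at this smallest p of the exact test and 0 of 8 passed after adjustment. The ratios share genes and libraries, and 4 at this p were too few for any to pass. With p taken as the doubled smaller tail, the version run first and replaced after its output was seen, these 4 had an adjusted p of 0.0914, but that version cannot go below 0.0571 with 3 against 4 libraries, so no ratio could have passed.

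**Figure D2:**
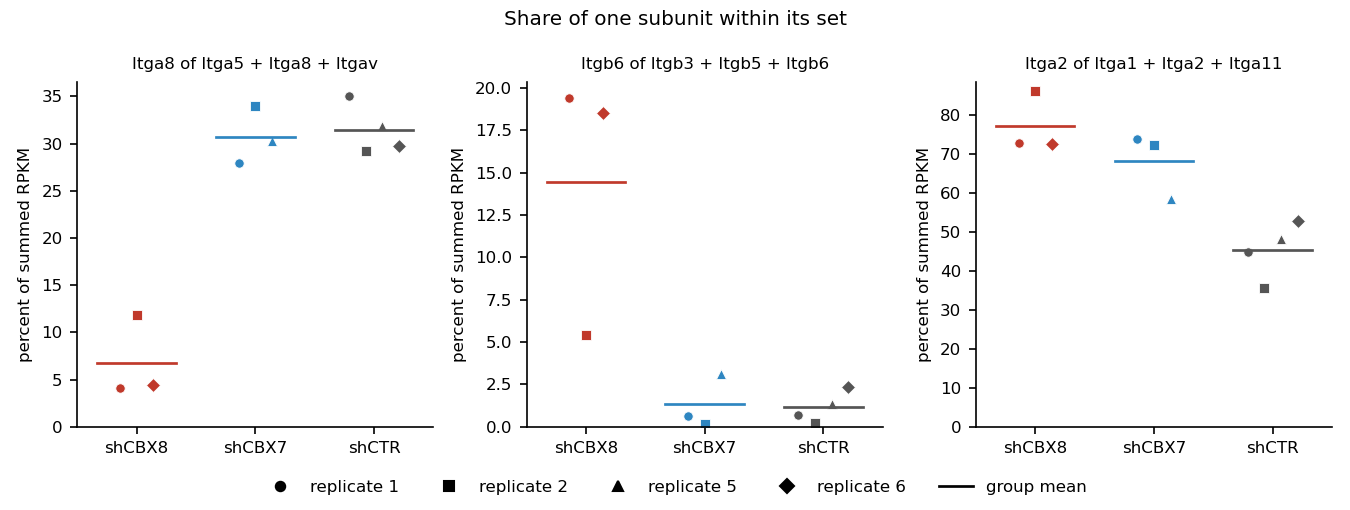
Share of Itga8, Itgb6 and Itga2 within its set of subunits in each library, in percent of the summed RPKM of the genes named above each panel, with shCBX8 (red), shCBX7 (blue) and shCTR (grey) libraries as points and the group mean as a line. Itga8 averages 6.78% in shCBX8 and 31.5% in shCTR, and Itga2 averages 77.0% in shCBX8, 68.2% in shCBX7 and 45.2% in shCTR.

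In cultures with the Cbx7 hairpin no subunit passed against the control hairpin. The edgeR quasi-likelihood test called 0 of 10 members and 0% of all genes, with 0 of 10 members and 975 of 16669 genes at an unadjusted p under 0.05. DESeq2 called 91 genes and 0 members. The members' log2 fold changes ran from -3.18 for Itga11 to 1.37 for Itgb3. Itga8 had 0.07 (95% interval -0.95 to 1.09), Itgb1 had 0.20 (-0.15 to 0.56), Itgav had -0.01 (-0.37 to 0.36) and Itgb6 had -0.16 (-1.75 to 1.44). For Itgb1 and Itgav these intervals leave out a 2-fold change, whereas that of Itgb6 does not.

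Itgb3 and Itgb5 varied widely among the shCBX7 libraries. Itgb3 measured 202, 25.2 and 34.9 CPM in shCBX7 1, 2 and 5, against 23.9, 16.6, 25.9 and 69.1 CPM in shCTR 1, 2, 5 and 6, so that shCBX7 1 stood alone. Itgb5 measured 101, 294 and 82.7 CPM in shCBX7 1, 2 and 5, against 191, 279, 124 and 122 CPM in shCTR 1, 2, 5 and 6, with replicate 2 the highest in both groups. Without shCBX7 1 the log2 fold change of Itgb3 turned to -0.16.

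**Figure D3:**
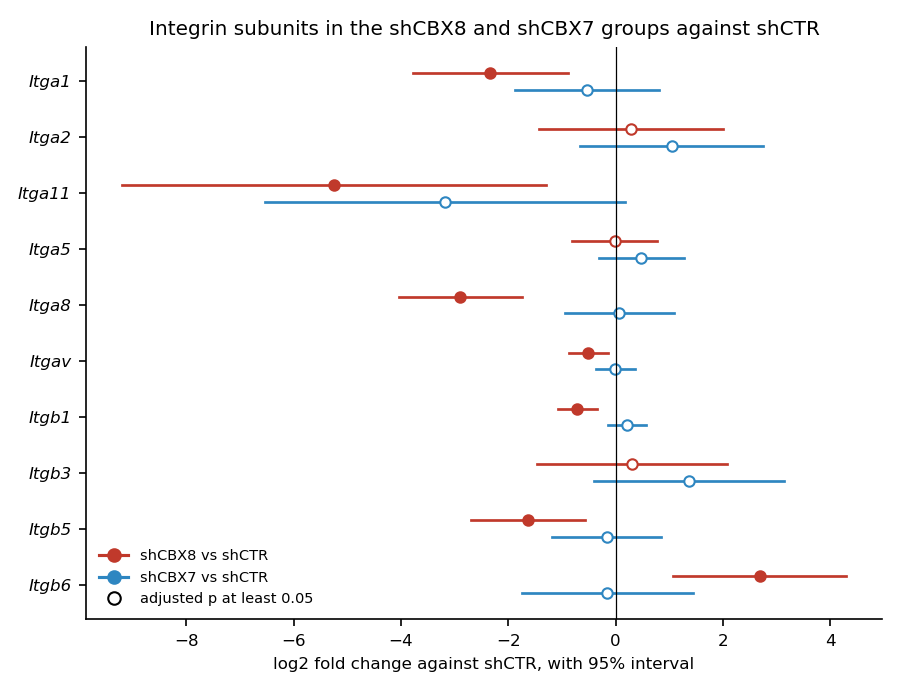
Log2 fold change of each subunit in shCBX8 (red) and shCBX7 (blue) against shCTR, with its 95% interval, filled where the adjusted p is under 0.05. The 7 filled points are all of shCBX8, with Itgb6 at 2.68 the only one to the right of 0.

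Set directly against shCBX7, the shCBX8 libraries had lower Itga8 and Itgb1 and higher Itgb6. The edgeR test called 3 of 10 members, where 28.6% of all genes passed, 15.3% higher and 13.3% lower, and the groups did not overlap for 6 of 10 members and 48.2% of all genes. On the log2 scale the difference was -2.96 for Itga8 (SE 0.52, adjusted p = 0.00625), -0.92 for Itgb1 (SE 0.17, adjusted p = 0.00710) and 2.84 for Itgb6 (SE 0.80, adjusted p = 0.0284). The calls of Itga8 and Itgb1 held in each other setting tried, and that of Itgb6 ended without any 1 of shCBX8 1 or 6 or shCBX7 1 or 2 (adjusted p = 0.0664 to 0.0911). Itgb5 (-1.47, adjusted p = 0.0518), Itgav (-0.51, adjusted p = 0.0542) and Itga1 (-1.81, adjusted p = 0.0639) did not pass, although DESeq2 called all 3. The comparison uses the same shCBX8 libraries as that with shCTR, and shCBX7 had a background of 11.2 to 15.5 CPM, near that of shCBX8.

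The windows around the start sites of the 3 members called in both shCBX8 comparisons are printed to show how they differ in base composition. They come from RefSeq (GRCm38.p6), run from 250 bases before to 50 after the start, 5′ to 3′ along the gene, and carry CG pairs in capitals. Itga8 lies at chr2:12301895-12302194 (minus strand), Itgb1 at chr8:128685404-128685703 (plus strand) and Itgb6 at chr2:60722554-60722853 (minus strand).
Itga8: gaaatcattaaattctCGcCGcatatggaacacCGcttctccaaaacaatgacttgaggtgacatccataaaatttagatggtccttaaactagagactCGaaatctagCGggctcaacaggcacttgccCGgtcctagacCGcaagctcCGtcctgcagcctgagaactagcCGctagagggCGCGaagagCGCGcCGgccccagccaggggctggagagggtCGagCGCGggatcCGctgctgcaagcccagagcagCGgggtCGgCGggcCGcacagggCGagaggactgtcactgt
Itgb1: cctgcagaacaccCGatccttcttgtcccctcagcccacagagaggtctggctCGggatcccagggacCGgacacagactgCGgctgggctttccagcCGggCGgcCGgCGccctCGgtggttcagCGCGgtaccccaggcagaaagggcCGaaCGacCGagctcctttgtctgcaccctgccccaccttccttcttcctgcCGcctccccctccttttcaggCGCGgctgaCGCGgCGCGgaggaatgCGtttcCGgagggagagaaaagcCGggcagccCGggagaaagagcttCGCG
Itgb6: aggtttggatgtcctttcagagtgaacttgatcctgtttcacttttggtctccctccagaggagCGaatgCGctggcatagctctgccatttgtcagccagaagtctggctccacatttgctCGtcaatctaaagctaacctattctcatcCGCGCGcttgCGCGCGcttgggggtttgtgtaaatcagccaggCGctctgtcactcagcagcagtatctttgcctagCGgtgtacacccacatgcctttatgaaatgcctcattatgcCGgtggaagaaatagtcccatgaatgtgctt
The Itga8 window held 23 CG pairs and the Itgb1 window 27, as many as or more than which were in 21.5% and 15.5% of 32851 windows of this length. The Itgb6 window held 12, and a further annotated window of Itgb6 held 3, against a median of 7 over all windows. Of the 10 members 9 had a window, and the others held 12 to 24 CG pairs. The motif TGANTCA, which reads the same on both strands, was in none of the members' windows and in 7.81% of all windows. CG pairs were chosen as the marked feature after both had been counted, and a match or its lack is a description of these letters.

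Of the other 16 integrin subunits, 1 rose and 2 fell in shCBX8 against shCTR, a smaller share than the 32.9% of all genes called, and their median log2 fold change was 0.15, beside -0.01 over all genes. Whether the lists differ was not tested. Itga7, a laminin-binding alpha subunit of muscle, rose to 159.8, 80.5 and 181 CPM in shCBX8 1, 2 and 6, against 23.8, 20.1, 15.9 and 20.3 CPM in shCTR 1, 2, 5 and 6 (log2 fold change 2.81, SE 0.29, adjusted p = 0.00124). Itga9, which binds tenascin C and osteopontin with beta 1, fell to 4.76, 4.45 and 4.28 CPM in shCBX8 1, 2 and 6, against 10.4, 15.5, 12.6 and 16.1 CPM in shCTR 1, 2, 5 and 6 (-1.60, SE 0.23, adjusted p = 0.00267). Both were thus changed in every shCBX8 library without overlap. The smooth muscle and skeletal muscle marker sums were also higher in every shCBX8 library than in every shCTR library. Few genes carried these sums. Of the 9 smooth muscle and pericyte markers 2 were called higher, where 17.0% of all genes were, 3 had a log2 fold change below 0, and the median was 0.18. Of 7 skeletal muscle markers 2 were tested and 1 was called higher. The part of these markers in the Itga7 level was not tested. Itgad, a leukocyte subunit, was called lower (-3.02, adjusted p = 0.0230) at no more than 0.0838 CPM in shCBX8 and 0.911 CPM in shCTR, a call that ended without any 1 of the shCBX8 libraries (adjusted p = 0.0521 to 0.0913) and with the background term (-0.18, adjusted p = 0.949). It is 1 of the 2 falls counted above, and it passed the filter on low counts only through shCTR libraries. Its counts were 23, 10, 9 and 5 in shCTR 1, 2, 5 and 6, 1 to 4 in the shCBX8 libraries and 0 to 3 in the shCBX7 libraries. In some other settings it was not tested. Its call is therefore no support for a fall. Itga10 did not pass (-1.02, adjusted p = 0.0670).

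**Figure D4:**
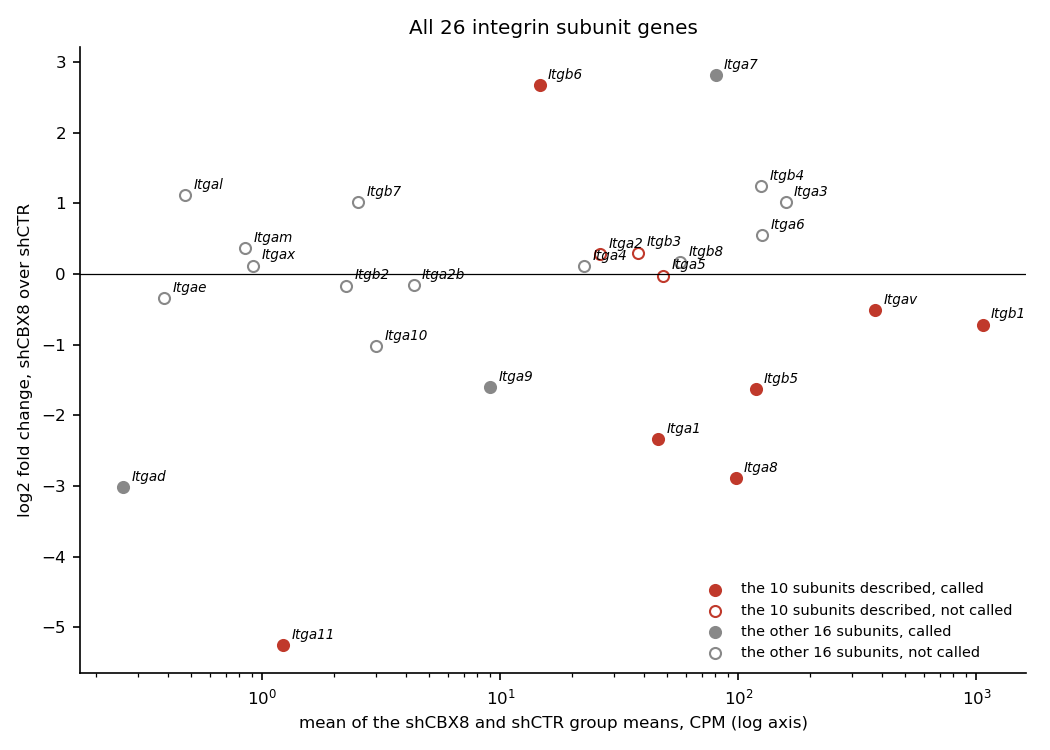
Log2 fold change in shCBX8 over shCTR of all 26 integrin subunit genes against the mean of both group means in CPM on a log axis, red for the 10 subunits described and grey for the other 16, filled where the adjusted p is under 0.05. Itgb6 and Itga7 stand highest, at 2.68 and 2.81, and Itga11, at -5.25, lies among the genes of low level.

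Among collagens, the ligands of alpha 1, alpha 2 and alpha 11, falls predominated in shCBX8. Of 12 tested 8 were lower and 0 higher, against 15.9% lower and 17.0% higher of all genes, and the median log2 fold change was -2.96, beside -0.01 over all genes. This list, like the others, was chosen with earlier results of these data known. Col4a1 and Col4a2, the collagen IV chains of basement membrane, measured 179 ± 23.2 and 88.3 ± 12.8 CPM in shCBX8 (SD, n = 3), against 1057 ± 220.0 and 466 ± 112 CPM in shCTR (n = 4), with log2 fold changes of -2.56 (SE 0.21) and -2.40 (SE 0.21), each with adjusted p = 0.000751. Col5a2 and Col6a3, of fibrillar collagen V and microfibrillar collagen VI, had -3.87 (adjusted p = 0.00563) and -2.16 (adjusted p = 0.0137). With the background term both calls ended (-3.14, adjusted p = 0.150, and -3.10, adjusted p = 0.0638), and that of Col6a3 ended also without shCBX8 1, without shCBX8 6 and without shCTR 1 and 2 (adjusted p = 0.0566 to 0.0610). Col1a1, Col1a2 and Col3a1 stand on the fibroblast marker list too, whose sum was 185 to 3260 CPM in shCBX8 and 5782 to 29271 CPM in shCTR.

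Of 13 tested genes of RGD ligands 2 rose and 5 fell in shCBX8, against 17.0% higher and 15.9% lower of all genes, with a median of -0.96, beside -0.01 over all genes. Edil3, an alpha v ligand of developing vessels, fell to 54.9 ± 4.62 CPM in shCBX8, against 266 ± 39.0 CPM in shCTR (-2.28, SE 0.20, adjusted p = 0.000751), and Fbn2, fibrillin 2, had -4.61 (adjusted p = 0.00753) and did not pass with the background term (-4.18, adjusted p = 0.164). Postn, periostin, measured 57.9, 32.0 and 36.4 CPM in shCBX8 1, 2 and 6, against 2816, 4694, 1145 and 115 CPM in shCTR 1, 2, 5 and 6 (-5.70, adjusted p = 0.00754), and -0.17 with the background term (adjusted p = 0.930). Mfge8, a bridge between apoptotic cells and alpha v receptors, rose to 194 ± 18.0 CPM in shCBX8, against 125 ± 7.26 CPM in shCTR (0.63, SE 0.10, adjusted p = 0.00370).

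The list of TGF-beta cytokine genes and genes named with latent TGF-beta gave 1 rise and 3 falls among 9 tested. Of all genes 32.9% were called, and the median log2 fold change of the list was -0.87. The list was not limited to ligands of alpha v with beta 6 or to proteins that bind latent TGF-beta. Ltbp2 and Ltbp4, matrix proteins that share the family name of latent TGF-beta binding proteins, fell, at -3.11 (adjusted p = 0.0112) and -2.74 (adjusted p = 0.0121). Both calls ended without shCBX8 1 or without shCBX8 6 (adjusted p = 0.0522 to 0.0572), and that of Ltbp2 with the background term (-3.07, adjusted p = 0.181). Of the cytokines, Tgfb2 rose to 19.6, 9.26 and 20.9 CPM in shCBX8 1, 2 and 6, against 6.22, 7.46, 6.09 and 7.89 CPM in shCTR 1, 2, 5 and 6 (1.26, SE 0.40, adjusted p = 0.0381), and Tgfb3 was lower by -0.44 (adjusted p = 0.0492), with groups that overlapped. The call of Tgfb2 ended in 8 of the 20 other settings, with the background term (1.55, adjusted p = 0.199), without shCTR 1 and 2 (1.23, adjusted p = 0.151) and without any 1 of shCBX8 1 or 6 or the shCTR libraries (adjusted p = 0.0550 to 0.135). That of Tgfb3 ended under most other settings, among them scaling by library size alone (-0.25, adjusted p = 0.244).

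On the cytoplasmic side, of 25 adaptors and kinases of adhesions 1 rose and 4 fell in shCBX8, a smaller share than the 32.9% of all genes called, with a median of -0.14. Fermt1, kindlin 1 of epithelia, rose to 70.8, 37.0 and 74.5 CPM in shCBX8 1, 2 and 6, against 7.17, 2.20, 11.2 and 16.7 CPM in shCTR 1, 2, 5 and 6 (2.70, SE 0.78, adjusted p = 0.0277). Its call ended with the background term (1.68, adjusted p = 0.437), without shCTR 1 and 2 (2.11, adjusted p = 0.125) and without any 1 of shCBX8 1 or 6 or shCTR 1 or 5 (adjusted p = 0.0558 to 0.0833). Ilk, integrin-linked kinase, fell to 77.2 ± 8.84 CPM in shCBX8, against 134 ± 16.3 CPM in shCTR (-0.79, SE 0.15, adjusted p = 0.00669), and Zyx, zyxin, had -1.30 (adjusted p = 0.0191) and Tns2, tensin 2, -1.41 (adjusted p = 0.0322). The call of Ilk ended with unstranded counts (-0.97, adjusted p = 0.105) and with the background term (-0.73, adjusted p = 0.123). Those of Zyx and Tns2 ended with the background term (adjusted p = 0.148 and 0.243), without shCTR 1 and 2 (adjusted p = 0.0776 and 0.142) and without shCBX8 1 or 6 (adjusted p = 0.0824 to 0.117), and that of Tns2 also without shCTR 1 or 2 (adjusted p = 0.0542 to 0.0617). Against shCTR, the edgeR test called 0 genes of these 5 lists in shCBX7, with 5 of them at an unadjusted p under 0.05.

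**Figure D5:**
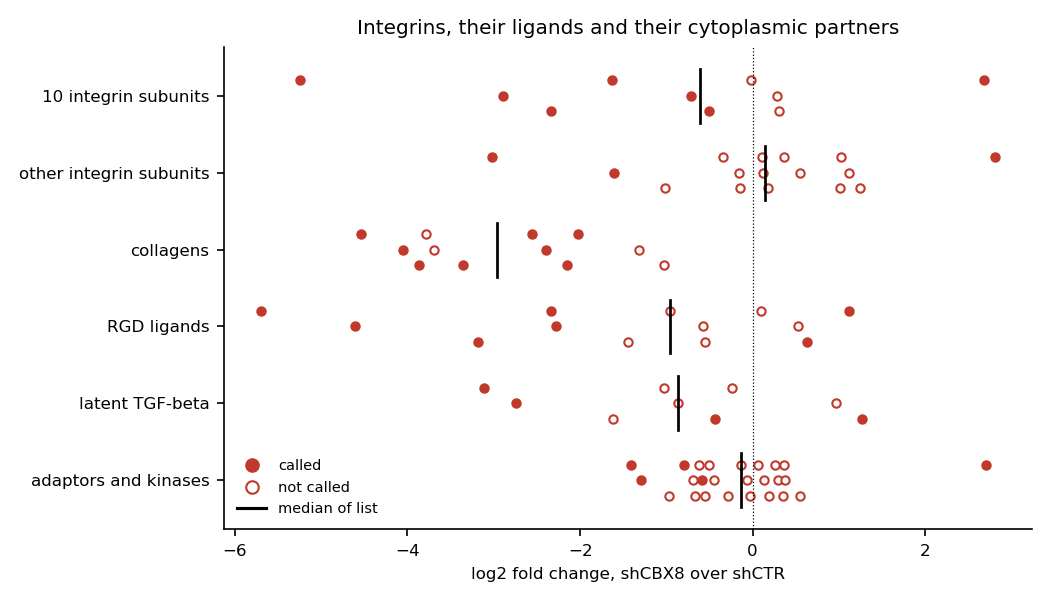
Log2 fold change in shCBX8 over shCTR of the 10 integrin subunits, the other integrin subunits, their ligands, genes named with latent TGF-beta and cytoplasmic partners of integrins. Points are filled where the adjusted p is under 0.05, with the median of each list as a line (points are spread vertically to separate them). Collagens have the lowest median, -2.96, and none of the 12 collagens of this list lies above 0.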

How the data were processed

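Stranded total RNA libraries were sequenced and the deposited files hold raw counts per Ensembl gene for each library, unstranded and for each strand, per the file headers and values. The submitters' processing notes name bcl2fastq 2.17, Trim Galore 0.4.3 and STAR 2.5.0a, and mm10 as the genome, and they do not give the annotation. Reverse-strand counts were analysed, since forward-strand counts were 3.42 to 10.4% of the stranded counts, and rows that name no gene were left out. Unmapped reads were 9.83 to 21.7% in shCTR and 5.03 to 7.81% in the shCBX8 and shCBX7 libraries. Reads that fell in no gene were 20.4 to 23.6% in shCTR and 12.5 to 18.6% in the others. Both shares were thus higher in every shCTR library, and their part in the differences was not tested. Of 41091 identifiers, 40217 matched GENCODE M21 (GRCm38), used for names and exon lengths.

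Genes were filtered with filterByExpr of edgeR 4.0.16 (R 4.3.3, minimum count 10), scaled by TMM and tested by quasi-likelihood over all 10 libraries with group as factor and Benjamini-Hochberg adjustment over 16669 genes (threshold 0.05). The median 95% interval reached 0.61 to each side in shCBX8 and 0.60 in shCBX7 against shCTR (log2), and 0.65 between them. Ratios used an offset of 0.5 counts and an exact permutation test. No pair of libraries within a group agreed within sampling noise, and each library counted as 1 replicate, which does not show that they came from separate cultures. The chi-square per degree of freedom was 28.2 between shCBX8 1 and 6, and 105 to 416 for the other pairs within a group. Whether shCBX8 1 and 6 share a culture is not stated in the labels. Named genes are the 10 members, Cbx7, Cbx8 and, of each list, up to 4 genes with the smallest p in shCBX8 against shCTR; genes named besides these serve as markers or overlap a member. Members, lists and the background covariate were chosen with earlier results of these data known. Alternatives were unstranded counts, no filter or one at a mean of 1 CPM, scaling by RLE or by library size alone, the replicate number as block, a background covariate, only the 2 groups compared, DESeq2 1.42.0, shCTR 1 and 2 left out, each library left out and, added after seeing the data, another tail for the exact test. The background covariate is the log2 of the opposite-strand receptor counts. Where libraries are left out, the others share 1 estimate of the spread.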

Additional observations from a re-analysis of the deposited data

Results flagged for a closer look

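Of 40 sets of values of the same 4 shCTR libraries checked for a library far from the others, 1 stood out, where chance gives about 1 in 20. The sets share their libraries and are not independent. Itga11 measured 8.57 CPM in shCTR 2, against 0.713, 0.142 and 0.115 CPM in shCTR 1, 5 and 6, while the fibroblast marker sum was also highest in shCTR 2, at 29271 CPM. The part of the fibroblast markers in the Itga11 level was not tested.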

How the results depend on the processing

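In shCBX8 against shCTR, 5478 genes and 7 members were called. These became 1881 genes and 1 member with the background covariate, 2409 genes and 1 member without shCTR 1 and 2, and 2261 to 6193 genes and 1 to 6 members with 1 library left out. In shCBX7 against shCTR, DESeq2 called 91 genes and edgeR 0 to 41 with 1 library left out. Between shCBX8 and shCBX7, 3 members became 5 with the replicate number as a block and 6 with DESeq2, and 2 to 6 with 1 library left out, with 1784 to 6005 genes against 4762. The correlation of same-number libraries was over 0.1 in 6 of 8 pairs (-0.08 to 0.69, and 0.26 to 0.69 for number 2), and not every library correlated best with its own number, so the numbers were not taken as pairs, and the block left 7 members called in shCBX8 against shCTR. Ratios with a library left out, and those between shCBX8 and shCBX7, cannot reach an adjusted p under 0.05, and length moves their levels, not differences. With the doubled tail, whose smallest p is 0.0571, no ratio could pass. Among the 7 member calls the cause of each loss was not tested.

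Directions that turned were, apart from Itga11 and Tgfb3, those of values not called. In shCBX8 against shCTR these were, with the covariate, Itga2 (-0.19), Itga11 (0.33), Itgb3 (-2.41) and Tgfb3 (0.075). They were also Itga2 with the block (-0.50), Itga5 by library size (0.14), without a filter (0.0068) and unstranded (0.021), and Itgb3 without shCTR 1 and 2 (-0.20). With 1 library left out Itga2 ran from -1.48 to 0.73, Itga5 from -0.48 to 0.22 and Itgb3 from -0.46 to 0.92. In shCBX7 against shCTR they were, with the covariate, Itga1 (0.44), Itga5 (-1.18), Itga8 (-1.11), Itga11 (3.37), Itgb3 (-2.02), Itgb5 (0.93) and Cbx7 (1.66). Without shCTR 1 and 2 they were Itga1 (0.43) and Itgb5 (0.38), and with the block Itga8 (-0.10) and Itgb6 (0.0068). Itgav turned by library size (0.034), without a filter (0.059), unstranded (0.081) and with only the 2 groups (0.0026). The log2 ratio of Itgb6 to Itgb5 turned with unstranded counts (-0.16) and without shCTR 1 and 2 (-1.18), that of Itga1 to Itga11 without shCTR 1 and 2 (-0.26 in shCBX8 and -0.35 in shCBX7 against shCTR), and, between shCBX8 and shCBX7 with unstranded counts, those of Itga2 to Itga11 (-0.71) and Itga1 to Itga11 (-1.38). With 1 library left out, ratio differences crossed 0 for Itga8 to Itgav (-0.0082 to 0.13) and Itgb6 to Itgb5 (-0.98 to 1.36) in shCBX7 against shCTR and, between shCBX8 and shCBX7, for Itga1 to Itga11 (-0.12 to 0.35), Itga5 to Itgav (-0.28 to 0.40) and Itgb3 to Itgb5 (-0.54 to 1.73). With 1 library left out Itga8 from -0.049 to 0.18, Itgav from -0.084 to 0.12, Itgb3 from -0.16 to 1.98, Itgb5 from -0.93 to 0.15 and Itgb6 from -1.01 to 0.42 were the ranges in shCBX7 against shCTR, and Itgb3 in shCBX8 against shCBX7 ran from -1.83 to 0.44. The depth limits Itga11, at 7 counts in shCBX8.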
